A study of Mus musculus with 4 samples.

Results

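Lysosomal genes other than the cathepsins were followed in macrophages grown from mouse bone marrow. The 37 genes were chosen by name and comprised 17 hydrolases and their activators, 5 membrane or transport proteins, 3 transcription factors of the MiT family and 12 subunits or accessory proteins of the proton pump V-ATPase. All 37 were found among the 16375 genes measured. The study compared BMDMs (bone marrow-derived macrophages) of WT mice with those of *lncLy6c* KO (LNCKO) mice, with or without butyrate, a short-chain fatty acid made by gut bacteria. Each of the 4 groups, WT and LNCKO with their control and butyrate cultures, was 1 RNA-seq library. Butyrate was given at 500 µM for 24 h to the cultures labelled butyrate and was absent from both controls. LNCKO mice were made on C57BL/6J with Cas9 cuts on either side of the first and second exons of the long noncoding RNA *lncLy6c*, and the loss was in the germline. The C57BL/6 mice came at 4 to 6 weeks of age and were of either sex, but neither age nor sex is stated for the animals behind these libraries. Bone marrow cells had grown in M-CSF for 4 d before treatment. The number of animals per library is not stated either. With 1 library per group, no difference below has a replicate check and no p-value is given.

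Lysosomes are acidic organelles in which hydrolases break down lipids, glycogen, glycoproteins and proteins that arrive by endocytosis, phagocytosis or autophagy. Macrophages, whose work is to engulf and digest particles, are rich in them. The V-ATPase acidifies the lumen: its V1 sector hydrolyses ATP in the cytosol and drives rotation of the V0 sector, which carries protons across the membrane. TFEB, TFE3 and MITF are transcription factors that enter the nucleus when the kinase mTORC1 is inactive, and bind an E-box, CACGTG, flanked by preferred bases in the promoters of many lysosomal genes.

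The libraries held 53363944 to 65521713 fragments. A member was covered by 430 fragments at the least (Atp6v0d2 in LNCKO control) and by 650081 at the most (Psap in LNCKO butyrate). A 95% exact interval is given beside some of the changes named and covers counting error only. It was computed from the fragments, without the pseudocount that enters the change itself. All 10 macrophage markers looked at were expressed, and their summed level was 1928, 2095, 1859 and 1880 fragments per kb of exons per 1000000 fragments. Wherever 4 values are given, as here, they stand in the order WT without butyrate, WT with butyrate, LNCKO without butyrate, LNCKO with butyrate. Ddx3y, a gene of the Y chromosome, had 65 and 49 fragments in the WT libraries and 6128 and 7764 in those of LNCKO. The sex of the animals and their genotype cannot be told apart here. The members Lamp2, Gla, Atp6ap1 and Tfe3 lie on the X chromosome. Names of the LNCKO libraries contain "NC" and "R3", which do not spell their condition, and the genotypes therefore rest on the sample titles. No row was named *lncLy6c*, and the deletion was not checked here. Markers of other cells were present too. Summed over 8 neutrophil genes the level was 7492, 9138, 6368 and 6140, and over 7 B cell genes it was 609.8, 472, 622 and 626. Erythroid genes summed to 7.80, 8.97, 30.7 and 86.6, and stromal genes to 35.9, 33.02, 11.1 and 22.5. Of the 8 neutrophil genes 2 rose and 2 fell by at least 0.32 on the log2 scale with butyrate in WT, and 6 were lower in LNCKO than in WT under butyrate. Among all expressed genes (0.1 FPKM or more on average), 9.12% rose and 10.7% fell with butyrate in WT by as much, and 10.7% were higher and 8.6% lower in LNCKO under butyrate. Of the 7 B cell genes 3 fell with butyrate in WT, and 4 were higher in LNCKO under butyrate. The part of these cells in the lysosomal results was not tested, and in bulk RNA fewer cells of a type cannot be told apart from less RNA per cell.

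The E-box was looked for in promoters, here the 250 bases before and 50 bases after an annotated start, from RefSeq on GRCm38.p6. Of the 37 members, 30 had an entry, with 38 promoters in all. CACGTG, which reads the same on both strands, was found in 9 of the 38 promoters (23.7%), against 10.2% of the promoters of expressed genes (0.1 FPKM or more on average) and 7.15% of all promoters. In each of the 9, at least 1 match had the base T before it or the base A after it, which gives TCACGTG on either strand; that longer run was found in 6.16% of promoters of the expressed genes. Every TCACGTG contains a CACGTG, so both counts describe the same matches. A related run, TCATGTG or its reverse complement CACATGA, was in 5 of the 38 promoters (13.2%). It was in 2.18% of the promoters of expressed genes and in 3.77% of all promoters. The promoters with CACGTG are shown because they are the members that carry the letters MiT factors are known to bind. Each is printed 5′ to 3′ on the strand of the gene, with the E-box in capitals.
Lamp1 (chr8:13159088-13159160, plus strand): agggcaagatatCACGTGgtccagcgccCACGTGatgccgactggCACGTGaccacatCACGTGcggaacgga
Atp6v0b (chr4:117887330-117887377, minus strand): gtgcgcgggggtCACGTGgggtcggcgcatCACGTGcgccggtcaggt
Mcoln1 (chr8:3500436-3500486, plus strand): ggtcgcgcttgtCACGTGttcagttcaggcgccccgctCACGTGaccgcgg
Gla (chrX:134601182-134601244, minus strand): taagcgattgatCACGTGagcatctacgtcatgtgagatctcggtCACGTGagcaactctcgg
Atp6v0d1 (chr8:105566050-105566079, minus strand): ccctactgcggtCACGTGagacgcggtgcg
Atp6v1a (chr16:44139373-44139402, minus strand): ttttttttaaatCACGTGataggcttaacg
Gaa (chr11:119267811-119267840, plus strand): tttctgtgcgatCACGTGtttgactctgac
Glb1 (chr9:114401018-114401047, plus strand): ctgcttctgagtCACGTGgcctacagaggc
Naglu (chr11:101070009-101070038, plus strand): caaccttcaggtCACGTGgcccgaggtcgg
Lamp1 carried 4 copies within 61 bases of its start. Atp6v0b, Mcoln1 and Gla carried 2 copies each, and the other 5 promoters carried 1. In GENCODE the spans of several of these genes, Gaa and Atp6v0b among them, begin before the RefSeq start. The matches of Atp6v1a and Naglu and the downstream match of Mcoln1 lie inside such a span, and the other matches lie outside. For Atp6v0b, 4 of the printed bases lie inside its span. A match of letters is a description and shows neither binding nor use.

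Levels were compared between members per length of exons, as fragments per kb of exons per 1000000 fragments. They ranged from 3643 for Psap to 3.90 for Atp6v0d2 on average over the 4 libraries. Psap, the precursor of the saposins that present sphingolipids to hydrolases, stood above all other members in each library, at 3573, 3948, 3433 and 3616. Grn, which encodes progranulin, followed at 689.8, 719, 639 and 674, and Lamp1, a heavily glycosylated protein of the lysosomal membrane, was next at 635, 712, 608 and 647. Grn stood above Lamp1 in each of the 4 libraries. Npc2, which hands cholesterol to NPC1, and Hexa, a subunit of beta-hexosaminidase, came next at means of 316 and 254. At the other end stood the factor Tfeb at 6.30, the calcium channel Mcoln1 at 6.36 and Atp6v0d2. Of the 36 pairs of neighbours in this order, 20 stood in the same order in every library and 16 did not, among them Mcoln1 with Tfeb and each neighbouring pair in the run Man2b1, Lipa, Gusb, Atp6v1a, Gla and Ppt1. The ranges over the libraries overlapped in 24 pairs. Npc1, which takes up cholesterol from NPC2, averaged 14.7. Within the pump, Atp6ap1, Atp6v0c and Atp6v1b2 averaged 99.9, 98.4 and 91.4, while Atp6v1h, which regulates the coupling of both sectors, averaged 7.35. Fragments of Glb1 may include some of Tmppe, which shares 165 exon bases with it on the same strand. Exons of 8 members (Atp6v0b, Atp6v1e1, Atp6v1h, Grn, Hexa, Lamp1, Npc1 and Ppt1) overlap a gene of the other strand by 32 to 511 bases, and whether strand was used in counting is not given in the sources used here.

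**Figure D1:**
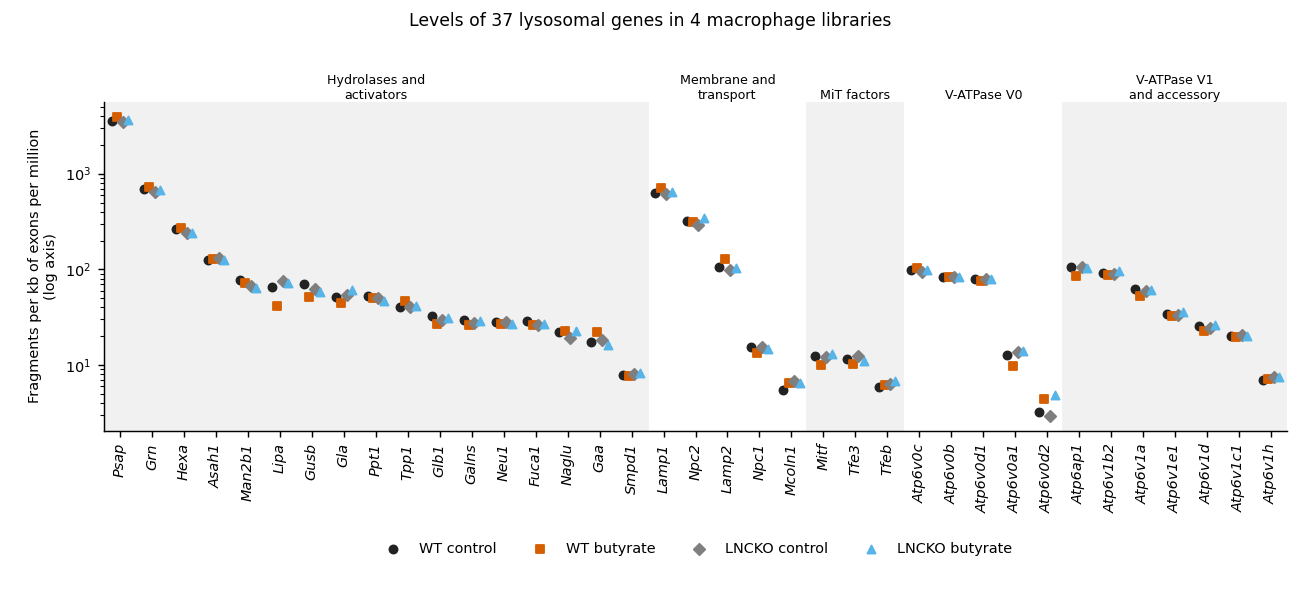
Level of each of the 37 members in each of the 4 libraries, in fragments per kb of exons per 1000000 fragments on a log axis, grouped by role and ordered by mean level; each symbol is 1 library. Psap lies highest in every library and Atp6v0d2 lowest. The symbols of most members lie close together, while those of Lipa, Atp6v0d2, Atp6v0a1, Gaa, Gla, Gusb, Lamp2 and Mitf spread most.

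The members differed little between the 4 libraries. In 29 of 37 the highest library stood less than 0.32 above the lowest on the log2 scale, and the same held for 65.5% of the 10959 expressed genes. The median ratio of highest to lowest was 1.16 over the members and 1.18 over all these genes. The 8 members that varied more were Lipa, Atp6v0d2, Atp6v0a1, Gaa, Gla, Gusb, Lamp2 and Mitf. Changes are given below as the log2 ratio of FPKM + 0.01, and a gene is said to have risen or fallen, or to have passed the limit, when this ratio was at least 0.32 from 0.

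Butyrate in WT cells was the first comparison and asked how the fatty acid alone moved the lysosomal genes. Lipa, Gusb and Atp6v0a1 fell and Gaa and Atp6v0d2 rose. This was 3 members lower, where 10.7% of all genes were lower, and 2 members higher, where 9.12% of all genes were higher, and these were 8.11% and 5.41% of the members. The median change was -0.06 over the members and -0.05 over all genes. Among all genes called in this comparison, 46.0% were higher; with libraries scaled by their median ratio this share was 60.3%. In LNCKO cells, the same comparison gave 1 rise, Atp6v0d2, against 4.75% of all genes, and no fall, against 4.19%. The median there was 0.03 over the members and -0.02 over all genes. The butyrate change in WT was then set against that in LNCKO by subtraction. It was lower in WT by at least the limit for Lipa, Gusb, Gla, Glb1, Atp6v0a1 and Mitf (6 members, against 12.0% of all genes) and higher for Gaa (1 member, against 11.1%). For Gaa among those higher, and for Gla, Glb1 and Mitf among those lower, the ratios had opposite signs in the genotypes with both counting intervals clear of 0, which held with such a difference for 3.83% (higher) and 3.69% (lower) of 10943 expressed genes with recovered fragments. All 4 libraries enter this difference and it was not tested.

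**Figure D2:**
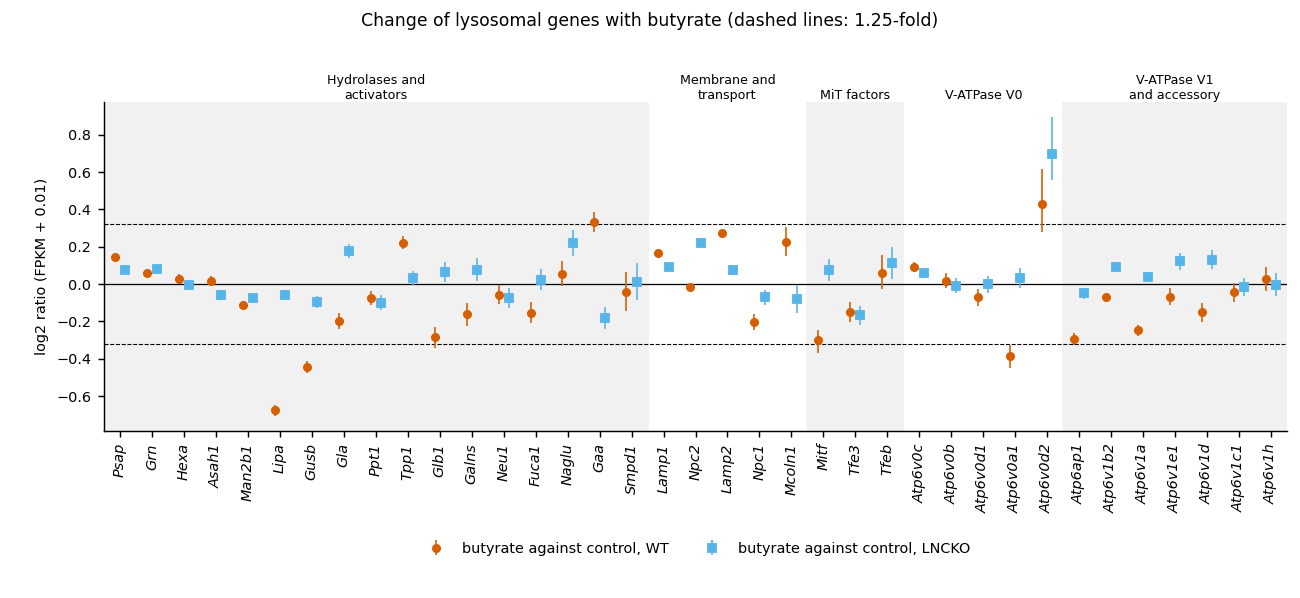
Change of each member with butyrate, as the log2 ratio of FPKM + 0.01 against the control of the same genotype, with circles for WT and squares for LNCKO; bars are 95% counting intervals and dashed lines mark the limit of 0.32. Lipa (-0.67), Gusb (-0.44) and Atp6v0a1 (-0.38) lie below the lower line in WT and near 0 in LNCKO, Gaa lies on opposite sides of 0, and Atp6v0d2 lies above the upper line in both.

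Hydrolases of lipids include Lipa (chr19:34492318-34527474, GRCm38), the acid lipase that frees cholesterol and fatty acids from the cholesteryl esters and triglycerides of engulfed lipoproteins. Its level was 65.4, 40.97, 74.8 and 71.8 fragments per kb of exons per 1000000 fragments, from 25018, 16443, 27046 and 31911 fragments. The WT butyrate library was the lowest and the other 3 stood above it. Lipa fell 1.60-fold with butyrate in WT, a log2 ratio of -0.67 (-0.70 to -0.65), and the ratio was -0.06 (-0.08 to -0.03) in LNCKO. Under butyrate it was 1.75-fold higher in LNCKO than in WT, and without butyrate the log2 ratio of genotypes was 0.19. It was the member with the largest fall in WT and the only one past 1.5-fold in that direction, where 2.91% of all genes fell as far. Under the other pseudocounts and scalings tried, the fall of Lipa in WT lay between -0.73 and -0.61. The 250 bases upstream of its start hold no CACGTG and are printed for comparison with the lines above.
Lipa (chr19:34527475-34527724, minus strand): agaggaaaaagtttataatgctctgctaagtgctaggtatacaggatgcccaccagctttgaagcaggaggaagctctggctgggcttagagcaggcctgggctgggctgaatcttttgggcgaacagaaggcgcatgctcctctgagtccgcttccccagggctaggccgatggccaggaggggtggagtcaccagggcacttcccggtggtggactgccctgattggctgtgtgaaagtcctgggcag
Among the sphingolipid enzymes, Gla (alpha-galactosidase A, chrX:134588149-134601125) had levels of 50.9, 44.5, 53.99 and 60.99. LNCKO butyrate was the highest library and WT butyrate the lowest. The log2 ratio with butyrate was -0.20 in WT and 0.18 in LNCKO, neither past the limit, and LNCKO stood 1.37-fold above WT under butyrate. Acid ceramidase (Asah1) stayed between 126 and 131, and acid sphingomyelinase (Smpd1) between 7.76 and 8.24. For Hexa, whose enzyme degrades gangliosides, the ratios with butyrate were 0.03 in WT and 0.00 in LNCKO. Psap had ratios of 0.14 and 0.07, and Grn of 0.06 and 0.08; the levels of both were higher with butyrate in either genotype, by less than the limit.

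Glycogen and glycan hydrolases included a member whose ratios with butyrate had opposite signs in the genotypes. Gaa (chr11:119267887-119285454, GRCm38) encodes acid alpha-glucosidase, which degrades glycogen inside lysosomes. Its level was 17.6, 22.1, 18.3 and 16.1, from 4734, 6253, 4659 and 5041 fragments, with the WT butyrate library on top and LNCKO butyrate at the bottom. It rose 1.26-fold with butyrate in WT (log2 0.33, 0.28 to 0.39), while the log2 ratio was -0.18 (-0.24 to -0.12) in LNCKO. Under butyrate Gaa was 1.37-fold lower in LNCKO than in WT. The rise in WT was close to the limit and was 0.28 on the log2 scale, under the limit, when FPKM were rescaled to a sum of 1000000 per library. The 174 bases before the gene span are printed with the single E-box in capitals; the RefSeq start of Gaa lies further in, and the 76 bases between were left out.
Gaa (chr11:119267713-119267886, plus strand): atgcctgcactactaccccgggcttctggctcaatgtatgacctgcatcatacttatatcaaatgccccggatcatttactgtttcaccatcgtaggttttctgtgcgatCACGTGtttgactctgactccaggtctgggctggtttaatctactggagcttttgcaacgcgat
Gusb (chr5:129989011-130003049), which encodes the beta-glucuronidase of glycosaminoglycan breakdown, fell 1.36-fold with butyrate in WT. Its levels were 69.9, 51.4, 61.8 and 57.8, with WT control on top and WT butyrate at the bottom. The log2 ratio was -0.44 (-0.47 to -0.41) in WT and -0.10 (-0.13 to -0.06) in LNCKO. Glb1, a beta-galactosidase of gangliosides and keratan sulfate, had levels of 32.9, 26.9, 29.5 and 30.9 and log2 ratios of -0.28 in WT and 0.06 in LNCKO. It did not pass the limit in WT as deposited, but did with rescaled FPKM, at -0.34. For Galns, a sulfatase of keratan sulfate, the pair of ratios was -0.16 and 0.08, and for Naglu, a glucosaminidase of heparan sulfate, 0.06 and 0.22. Among the glycoprotein enzymes none passed the limit, which 9.12% (higher) and 10.7% (lower) of all genes passed in WT, and 4.75% and 4.19% in LNCKO. Man2b1, the lysosomal alpha-mannosidase, gave -0.11 and -0.07, the fucosidase Fuca1 gave -0.15 and 0.02, and the sialidase Neu1 gave -0.06 and -0.07.

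Protein hydrolases were represented by Tpp1, a tripeptidyl peptidase, and Ppt1, a thioesterase that removes palmitate from proteins. Tpp1 levels were 40.4, 47.2, 40.2 and 41.1, with the WT butyrate library above the other 3. Its ratios with butyrate were 0.22 in WT and 0.03 in LNCKO. Ppt1 was at 52.8, 50.2, 49.98 and 46.6, and its ratios were -0.07 and -0.10. Over all 17 hydrolases and activators, 1 rose (5.88%, against 9.12% of all genes) and 2 fell (11.8%, against 10.7%) with butyrate in WT, and none passed the limit in LNCKO, where 4.75% of all genes rose and 4.19% fell.

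Among the membrane and transport proteins, none of 5 passed the limit with butyrate in either genotype. Of all genes, 9.12% rose and 10.7% fell in WT, and 4.75% rose and 4.19% fell in LNCKO. Lamp2, the partner of LAMP1 that also serves chaperone-mediated autophagy, had levels of 107, 129, 99.1 and 104. WT butyrate was the highest library, and the log2 ratio was 0.27 (0.26 to 0.29) in WT and 0.08 in LNCKO. With libraries scaled by their median ratio it reached 0.33 in WT, past the limit. Lamp1 had ratios of 0.17 and 0.09. Npc2 had ratios of -0.02 in WT and 0.22 in LNCKO, and Npc1 of -0.20 and -0.07. Mcoln1 encodes TRPML1, the channel that releases lysosomal calcium, and had levels of 5.55, 6.49, 6.89 and 6.51. WT control was the lowest library, and the log2 ratio was 0.23 with butyrate in WT, -0.08 in LNCKO and 0.31 between the genotypes without butyrate.

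The MiT factors themselves had low levels, and none passed the limit with butyrate as deposited. The shares of all genes past it were 9.12% (higher) and 10.7% (lower) in WT, and 4.75% and 4.19% in LNCKO. Tfeb levels were 5.90, 6.17, 6.31 and 6.84, and Tfe3 levels were 11.5, 10.3, 12.4 and 11.03. Their ratios with butyrate were 0.06 and 0.11 for Tfeb and -0.15 and -0.17 for Tfe3, in WT and LNCKO. Mitf, also known from melanocytes and osteoclasts, was at 12.4, 9.998, 12.3 and 12.97, with WT butyrate the lowest library. The ratios were -0.30 (-0.37 to -0.24) in WT and 0.08 (0.02 to 0.14) in LNCKO. With rescaled FPKM the ratio in WT was -0.36, past the limit. Per exon length and counting the relative Tfec, Mitf made up 31.4%, 28.6%, 30.2% and 32.5% of MiT transcripts, and Tfe3 made up 29.1%, 29.6%, 30.4% and 27.7%. These values are RNA levels. The position of the proteins in the cell, through which mTORC1 acts on them, was not measured.

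In the V0 sector of the pump, 2 of 5 members passed the limit with butyrate in WT, in opposite directions. Of all genes, 9.12% rose and 10.7% fell in that comparison. Atp6v0d2 (chr4:19876841-19922605, GRCm38) encodes the d2 subunit, which is known from osteoclasts and from the fusion of macrophages. Its level was 3.27, 4.46, 2.97 and 4.91, from 501, 717, 430 and 874 fragments, and both butyrate libraries lay above both controls. It rose 1.35-fold in WT (log2 0.43, 0.28 to 0.61) and 1.62-fold in LNCKO (log2 0.70, 0.56 to 0.90), and was the only member to rise in LNCKO. It was also the least covered member, and with a pseudocount of 1 FPKM its ratios were 0.08 and 0.14. The alternative d1 subunit, Atp6v0d1, stayed between 75.7 and 80.2. Atp6v0d2 made up 3.95%, 5.56%, 3.57% and 5.77% of d subunit transcripts per exon length. Beside this stands the osteoclast protease Ctsk, at 7.48, 12.6, 6.92 and 14.4, which rose 1.68-fold in WT and 2.07-fold in LNCKO. The other osteoclast genes did not all follow. Of the 6 found in the file, 3 passed the filter on low values: Ctsk, the protease Mmp9, with log2 ratios of 0.40 in WT and 0.07 in LNCKO, and the transcription factor Nfatc1, with -0.13 and -0.06. The latter 2 were named after their values were seen. The sum of the list was 89.7, 114, 80.5 and 90.2, Dcstamp had 0 fragments in both LNCKO libraries and Ocstamp had 23, 4, 0 and 8. Their part in the result was not tested.

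Atp6v0a1 (chr11:101009452-101063719) encodes one of the alternative a subunits, which direct the pump to different membranes. Its level was 12.7, 9.73, 13.6 and 13.9, from 4703, 3778, 4765 and 5982 fragments, with WT butyrate below the other 3 libraries. The fall in WT was 1.30-fold (log2 -0.38, -0.45 to -0.32), and the ratio in LNCKO was 0.03 (-0.02 to 0.09). With a pseudocount of 1 FPKM the log2 ratio was -0.22, under the limit. It made up 7.30%, 6.24%, 8.05% and 7.96% of the a subunits measured, of which Tcirg1, named here after its values were seen, made up 62.7%, 66.8%, 63.4% and 63.2%. The proton-carrying ring subunits Atp6v0c and Atp6v0b had ratios of 0.09 and 0.02 with butyrate in WT and of 0.06 and -0.01 in LNCKO.

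Neither Atp6ap1 nor any V1 subunit among the members passed the limit in any comparison, in either direction. The G subunit Atp6v1g2, which is not a member, is given with the other lists below. Of all genes, 4.19% to 12.0% passed it, depending on the comparison and the direction. Atp6v1a is the catalytic subunit and was at 62.9, 52.99, 59.4 and 60.9. Its ratio with butyrate was -0.25 (-0.28 to -0.22) in WT and 0.04 in LNCKO. The accessory protein Atp6ap1, needed for assembly of the pump, was at 105, 85.9, 106 and 102 and had ratios of -0.30 (-0.33 to -0.26) and -0.05. It passed the limit in WT with rescaled FPKM, at -0.35. The nucleotide-binding B subunit Atp6v1b2 had -0.07 and 0.09. The shaft subunit Atp6v1d had -0.15 and 0.13, and the stalk subunits Atp6v1e1 and Atp6v1c1 had -0.07 and -0.04 in WT and 0.12 and -0.01 in LNCKO. For Atp6v1h the ratios were 0.03 and 0.00. With butyrate in WT, 6 of the 7 ratios were below 0, 5 of 7 with libraries scaled by their median ratio and 7 of 7 with rescaled FPKM. As deposited, 6650 of the 10959 expressed genes were below 0 as well. The median of the 7 was -0.07, against -0.05 for all genes. In LNCKO it was 0.04, with 4 of 7 above 0, where 4623 of the 10959 expressed genes were above 0.

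Loss of *lncLy6c* without butyrate was the next comparison. No member passed the limit in either direction, where 5.91% of all genes were higher in LNCKO and 4.84% were lower. The median was -0.01 over the members and 0.02 over all genes. Mcoln1 came nearest, at 0.31 (0.23 to 0.39), and just reached the limit with rescaled FPKM. The lowest ratio was that of Naglu at -0.19, with Man2b1 and Gusb close to it at -0.19 and -0.18. Under butyrate, Lipa, Gla, Atp6v0a1 and Mitf were higher in LNCKO than in WT (4 members, against 10.7% of all genes) and Gaa was lower (1 member, against 8.6%). Lipa stood at 0.81 (0.78 to 0.84), Atp6v0a1 at 0.51 (0.46 to 0.58), Gla at 0.46 (0.42 to 0.50) and Mitf at 0.36 (0.31 to 0.44). Gaa was at -0.46 (-0.51 to -0.40). For these 5 genes the genotypes lay closer without butyrate, at 0.19, 0.10, 0.08, -0.01 and 0.06 in the same order. Among all genes called under butyrate, 55.4% were higher in LNCKO, and 42.1% with libraries scaled by their median ratio. That scaling also brought Mitf to 0.31, just under the limit, and Lamp2 to -0.37, past it. With a pseudocount of 1 FPKM, Mitf was at 0.09 and Atp6v0a1 at 0.30, both under the limit, while Lipa, Gla and Gaa stayed past it. With 0.1 FPKM Mitf was at 0.29. The V1 members and Atp6ap1 were above 0 in 7 of 7 under all 3 scalings, with a median of 0.16 against 0.05 for all genes as deposited. As deposited, 6672 of the 10959 expressed genes were above 0 as well. The WT butyrate library enters both this comparison and that of butyrate in WT, so they are not separate evidence. Gla and Lamp2 are X-linked, and neither sex nor the marker genes given above were separated from genotype.

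**Figure D3:**
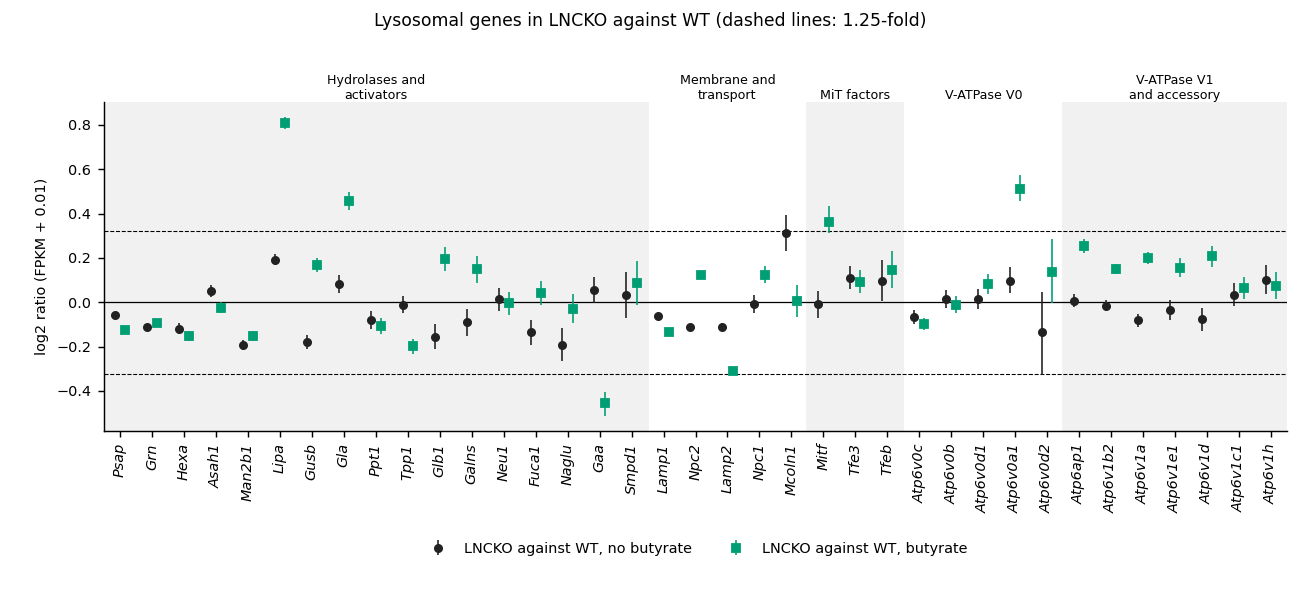
Ratio of each member in LNCKO against WT, as the log2 ratio of FPKM + 0.01, with circles for cells without butyrate and squares for cells with butyrate; bars are 95% counting intervals and dashed lines mark the limit of 0.32. No circle lies past a dashed line, while the squares of Lipa (0.81), Atp6v0a1 (0.51), Gla (0.46) and Mitf (0.36) lie above the upper line and that of Gaa (-0.46) below the lower.

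Members with and without the E-box were set side by side. The median change with butyrate in WT was 0.02 over the 9 members with CACGTG in the promoter and -0.07 over the 21 with an entry and no match. In LNCKO the medians were 0.04 and 0.03. The ratios of members with the letters ran in WT from -0.28 (Glb1) to 0.33 (Gaa). Of the members that fell with butyrate in WT, Lipa, Gusb and Atp6v0a1 had an entry and no CACGTG in it, which says only that these letters are not in this window. Atp6v0d2 had no entry.

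Other lysosomal genes were counted from lists made by role. Only genes past the filter on low values are counted, and the shares to read them against are 9.12% higher and 10.7% lower among all genes with butyrate in WT, and 4.75% and 4.19% in LNCKO. Of 22 other hydrolases 2 (9.09%) fell (Ctbs and Pla2g15) and none rose with butyrate in WT, and none passed the limit in LNCKO, with medians of -0.07 and 0.01. Of 16 other membrane proteins none passed in either genotype. Of 8 further V-ATPase subunits and assembly factors 1 fell in WT and 1 rose in LNCKO. Both were Atp6v1g2, a minor G subunit at 1.53, 1.04, 1.28 and 1.76, from 216, 154, 172 and 289 fragments, with log2 ratios of -0.55 (-0.87 to -0.25) and 0.45 (0.18 to 0.73). Of 6 genes that sort enzymes to the lysosome, 1 fell in WT (Sort1). Igf2r, the receptor that carries mannose 6-phosphate tagged hydrolases, was at 6.43, 5.26, 6.84 and 8.05 and stood 1.52-fold higher in LNCKO than in WT under butyrate. Of 18 genes of mTORC1 and Rag control none passed in WT and 1 rose in LNCKO (Rragd). Of 19 autophagy genes none passed in WT, with a median of -0.13, and 1 fell in LNCKO (Wipi1). The 5 genes named in brackets were named after their values were seen. The receptor Optn, at 3.33, 2.66, 3.71 and 4.16, was 1.54-fold higher in LNCKO than in WT under butyrate. Without butyrate, none of these genes passed the limit between the genotypes, where 5.91% of all genes were higher in LNCKO and 4.84% were lower.

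**Figure D4:**
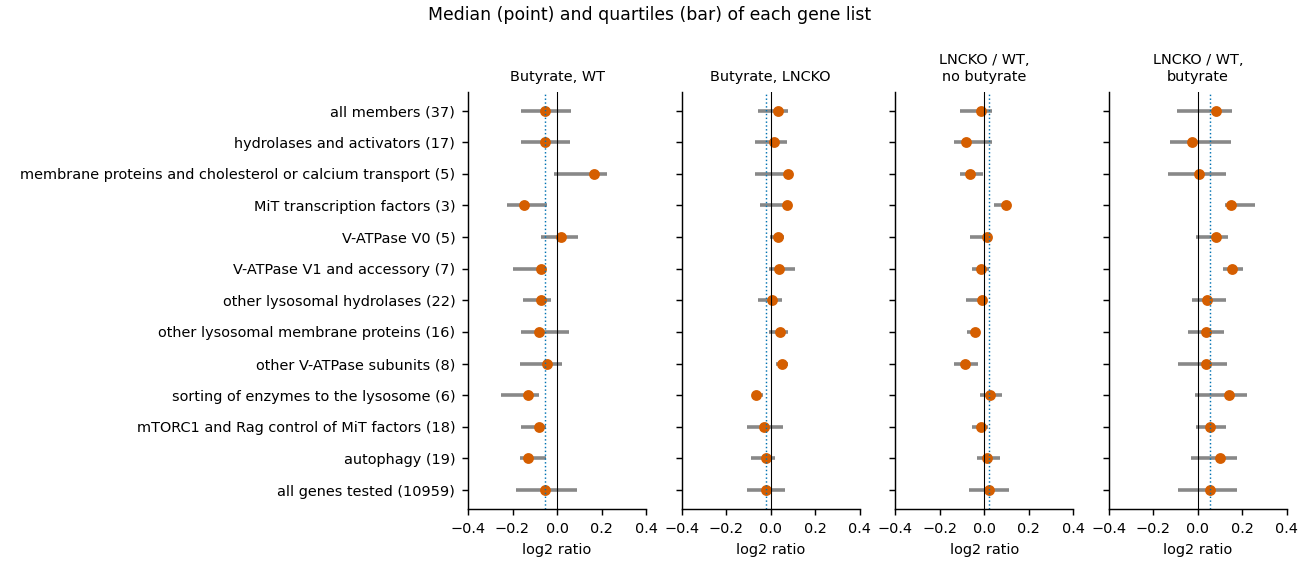
Median (point) and quartiles (bar) of the log2 ratio of FPKM + 0.01 in each gene list, in 4 panels for butyrate in WT, butyrate in LNCKO, and LNCKO against WT without and with butyrate; the number of genes is in brackets and the dotted line is the median of all 10959 genes. Medians of the 12 lists lie between -0.15 and 0.17, and the 37 members lie at -0.06, 0.03, -0.01 and 0.08.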

How the data were processed

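RNA-seq values of 16375 genes in 4 BMDM libraries (1 per group) were analysed. The authors deposited FPKM and no counts. Per the labels, RNA was taken with an RNeasy kit and libraries with a TruSeq kit, while the paper's methods give TRIzol and an MGISEQ-2000. The submitters' processing notes name STAR 2.5.0c, HTSeq 0.6.0 and GRCm38. Whether strand was used in counting is not given in the sources used here.

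In the deposited FPKM, fragments were divided by the whole genomic span of a gene: with spans of GENCODE M21 on GRCm38 and a searched library total, values gave whole fragments (within 0.02) in all 4 libraries for 98.5% of 16342 matched genes, and for 6.99% when exon lengths were used. Of the 37 members 36 were whole; those of Psap were rounded. Library totals were 56392029, 59195293, 53363944 and 65521713. Levels between genes were computed from these fragments over the union of a gene's exons. Fragments carry no molecular identifiers, so intervals (95%, exact Clopper-Pearson for a ratio of 2 counts) cover counting error only.

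Changes were log2 ratios of FPKM + 0.01, a small pseudocount because span-based FPKM of long genes are low, and on this scale changes of low genes are understated. Counts and medians of the members were set beside the 10959 expressed genes, those averaging 0.1 FPKM or more, all 37 members among them. A change of 1.25-fold, or 0.32 on the log2 scale, was called, and 1.5-fold was the stricter limit. Groups came from the sample titles. No statistical test was possible with 1 library per group.

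The members, the other lists (further hydrolases, membrane proteins, V-ATPase subunits, sorting, mTORC1 and Rag control, autophagy, and markers of macrophages, osteoclasts, B cells, T and NK cells, neutrophils, dendritic cells, mast cells and basophils, erythroid and stromal cells) and the limits were chosen with earlier results of these data known. Named genes were all members, other listed genes past 1.5-fold and expressed, and a Y-linked gene as a check of the libraries; any other gene is said to have been chosen after its values were seen. Alternatives were pseudocounts of 0.1 and 1, libraries scaled by their median ratio, FPKM rescaled to 1000000 per library, an average of 1 FPKM or more, no filter, 1.5-fold and the longest transcript for exon lengths; a minimum of 100 fragments on average was added after seeing the data. 1 gene of these lists is not reported here and was left out of the counts. Steps were tested on simulated data. The scripts ran on Python 3.11.15 with pandas 2.3.3, scipy 1.17.1 and numpy 2.4.6, and figures were drawn with matplotlib 3.10.9.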

Additional observations from a re-analysis of the deposited data

Results flagged for a closer look

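In 4 members the ratio with butyrate had opposite signs in WT and LNCKO, both counting intervals left out 0, and the difference between genotypes was past the limit of 0.32. Each value rests on 1 library per group, and the differences were not tested. For Gaa, the enzyme of lysosomal glycogen breakdown, the change in WT minus that in LNCKO was 0.51 on the log2 scale, from 0.33 and -0.18. Gla differed by -0.37, from -0.20 and 0.18, and lies on the X chromosome, while the libraries of the genotypes differ in Y-linked fragments. Glb1 differed by -0.35, from -0.28 and 0.06, and its fragments may include some of Tmppe. Mitf differed by -0.37, from -0.30 and 0.08, and with a pseudocount of 1 FPKM that difference was -0.10. Under the same 3 conditions, the difference was higher in 3.83% and lower in 3.69% of the 10943 expressed genes with recovered fragments. A difference past the limit of 0.32, whatever the signs, was found for 11.1% (higher) and 12.0% (lower) of all genes.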

How the results depend on the processing

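No paired analysis was possible because each group was 1 library, and no library could be left out without emptying its group. No called change of a member turned its direction under any alternative. The counts of members past the limit of 0.32 were small and moved with the settings. With a pseudocount of 1 FPKM, rises with butyrate in WT went from 2 to 0 and in LNCKO from 1 to 0, members higher in LNCKO under butyrate from 4 to 2, and members with a lower butyrate change in WT than in LNCKO from 6 to 3. The shares of all genes in these 4 directions were then 2.51%, 0.91%, 2.80% and 3.29%. With 0.1 FPKM, 1 rise was left in WT, against 7.38% of all genes. Rescaled FPKM gave 1 rise and 6 falls in WT in place of 2 and 3, where 12.6% of all genes rose and 18.2% fell. It also gave 1 member higher in LNCKO without butyrate in place of 0, against 10.6% of all genes. Scaling by the median ratio gave 2 members lower in LNCKO under butyrate and 2 with a higher butyrate change in WT, each in place of 1. The shares of all genes there were 10.9% and 12.8%. An average of 1 FPKM or more as the filter removed Atp6v0d2 and left 1 rise in WT and 0 in LNCKO, against 4.99% and 2.00% of all genes. At 1.5-fold, butyrate in WT gave 0 rises and 1 fall, LNCKO under butyrate gave 1 member higher and 0 lower, and the difference gave 0 higher and 1 lower. The shares of all genes past 1.5-fold, higher and lower in the same order, were 3.94% and 2.91%, 3.4% and 3.63%, and 4.71% and 4.14%. Of the members' counts and medians under all alternatives, 97 stayed within the limits set and the 18 given above did not. Counts of all genes past the limit of 0.32, 459 to 1316 over the comparisons and directions, were 52 to 360 with a pseudocount of 1, 97 to 565 with the filter at 1 FPKM, 1285 to 2694 with no filter and 1185 to 2501 with rescaled FPKM, which lets more genes past the filter; with 0.1 FPKM, falls in LNCKO went from 459 to 289. Of the changes of single members 161 of the values under an alternative left the counting interval of the main value and 1114 stayed within it. A filter does not alter a ratio, so the 165, 185 and 185 values under the 3 filter settings stayed by construction. Scaling by the median ratio moved 79 values and left 106, and rescaled FPKM moved 59 and left 126. A pseudocount of 1 FPKM moved 20 and left 165, and 0.1 FPKM moved 3 and left 182. Levels over the longest transcript moved ranks by up to 5, and 9 members kept their rank. The widest counting interval of a member was 0.19 to either side on the log2 scale, and the spread between cultures was not measured.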

Other observations

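Marker genes of other cells, counted in the same libraries, give the setting in which the lysosomal levels were measured. Summed over 7 T and NK cell genes the level was 17.8, 16.9, 15.4 and 17.4 fragments per kb of exons per 1000000 fragments, in the order of groups used above. That sum is mostly Cd4, at 14.9, 14.8, 11.3 and 12.6; Cd4, and Kit further on, were named after their values were seen. The other 4 expressed genes of the list, Cd3d, Cd3e, Cd3g and Cd8a, lay at 2.01 or less in every library, and all 4 were at least 1.5-fold higher in LNCKO than in WT under butyrate, with log2 ratios from 0.69 (Cd8a) to 2.00 (Cd3e). The share of all genes at least 1.5-fold higher in that comparison was 3.4%. Without butyrate the same 4 genes were at 1.44, 1.20, 0.49 and 0.13. Over 6 dendritic cell genes it was 35.5, 26.1, 32.7 and 30.997, and over 6 genes of mast cells and basophils it was 38.4, 25.96, 59.4 and 56.3. The latter sum was lower with butyrate in WT and higher in both LNCKO libraries than in either WT library, but its 5 expressed genes did not move together. Mcpt8, a protease of basophils, was at 18.2, 9.21, 31.5 and 28.8, and the mast cell protease Cpa3 at 11.6, 6.74, 16.5 and 13.3, and both fell with butyrate in WT. Ms4a2, a subunit of the IgE receptor, rose there, at 1.99, 3.31, 2.99 and 7.01, while Gata2 and Kit had log2 ratios of 0.07 and 0.11. Over the 5 genes the median with butyrate in WT was 0.07. Under butyrate 4 of the 5 were higher in LNCKO than in WT and Kit was lower, at -0.38. Of all genes, 10.7% were higher and 8.6% lower there by the limit of 0.32. Col1a1, a fibroblast collagen, was at 13.2, 10.4, 3.07 and 5.91, with both WT libraries above both LNCKO libraries. Hba-a1, a globin, was at 3.49, 3.70, 11.98 and 33.6, with the LNCKO libraries higher. These sums are small beside those of macrophage and neutrophil genes.

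Summed over all 37 members, the level was 6908, 7317, 6620 and 6937. The sum follows Psap, which alone was at 3573, 3948, 3433 and 3616. Over the 17 hydrolases and activators it was 5176, 5530, 4952 and 5162, over the 5 V0 members 276, 278, 274 and 279.9, and over the 7 members of V1 with Atp6ap1 346, 308, 341 and 350.4. The V1 sum was lowest in WT butyrate and the V0 sum varied little. Whether any of these differences exceeds the spread between cultures cannot be told with 1 library per group.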
